A study of Mus musculus with 6 samples.

Results

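The 6 genes described here regulate cartilage formation, and each was measured by 1 probe set of the array that lists no other gene. They were taken by symbol, with earlier results of these arrays known, and make up 6 of the 22180 genes tested. The set holds the transcription factor genes Sox9, Sox5, Sox6 and Nkx3-2, the hedgehog ligand gene Ihh and the receptor gene Pth1r. Ihh is the only hedgehog signal among them, and Pth1r encodes the receptor that answers it one step further on.

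RNA was measured on 6 Affymetrix arrays of PDGFRα-positive fibroblasts, sorted from E14.5 embryos of 129SV mice, of which the dorsal body wall was taken. All embryos were Ebf2(GFP)/+, with a GFP reporter on 1 allele of Ebf2, so both sorted groups share that genotype. The groups were Pdgfra+ cells with the GFP reporter (Ebf2(GFP)+, n = 3 arrays) and Pdgfra+ cells without it (Ebf2(GFP)-, n = 3 arrays), with no drug or other agent named in the labels for either, called GFP-positive and GFP-negative below. The labels do not say how many embryos were pooled for an array or whether replicates are of separate litters. The p-values therefore cover the spread among these samples alone, and that spread may be technical.

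In the embryo, SOX9 starts and maintains the cartilage program, and SOX5 and SOX6 are closely related partners without an activation domain of their own that strengthen its action on cartilage genes. NKX3-2 acts in the sclerotome, the part of the somite that forms the vertebrae, where it favours cartilage and holds back chondrocyte maturation. Indian hedgehog (IHH), secreted by chondrocytes that are leaving the cell cycle, raises parathyroid hormone-related protein (PTHrP), and PTHrP acts through PTH1R to delay hypertrophy. The hedgehog signal itself is received by PTCH1, which releases the transducer SMO and, through it, the GLI transcription factors.

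Some of the genes passed as lower in GFP-positive cells and the others did not pass. Sox9, Sox5, Sox6 and Pth1r fell, by between 1.37-fold for Sox9 and 2.55-fold for Sox6, whereas Nkx3-2 and Ihh did not pass and their groups overlapped. Thus 4 of 6 genes (66.7%) were lower at a Benjamini-Hochberg adjusted p under 0.05 in limma, against 3.84% of all genes tested, and none was higher, against 2.65%. With the replicate number as a block, these 4 again passed and fell, where 5.49% of all genes fell and 4.55% rose. The 3 GFP-positive arrays lay entirely below the 3 GFP-negative arrays for the same 4 genes, as they did for 9.78% of all genes, and in 22.0% of all genes the groups did not overlap in one direction or the other. Since the choice was made with those results known, these shares are a description. The median log2 change, which is GFP-positive minus GFP-negative here and throughout, was −0.54 for the 6 genes and 0.02 for all genes. In sorted bulk samples, fewer cells of a type and less RNA per cell cannot be told apart.

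**Figure D1:**
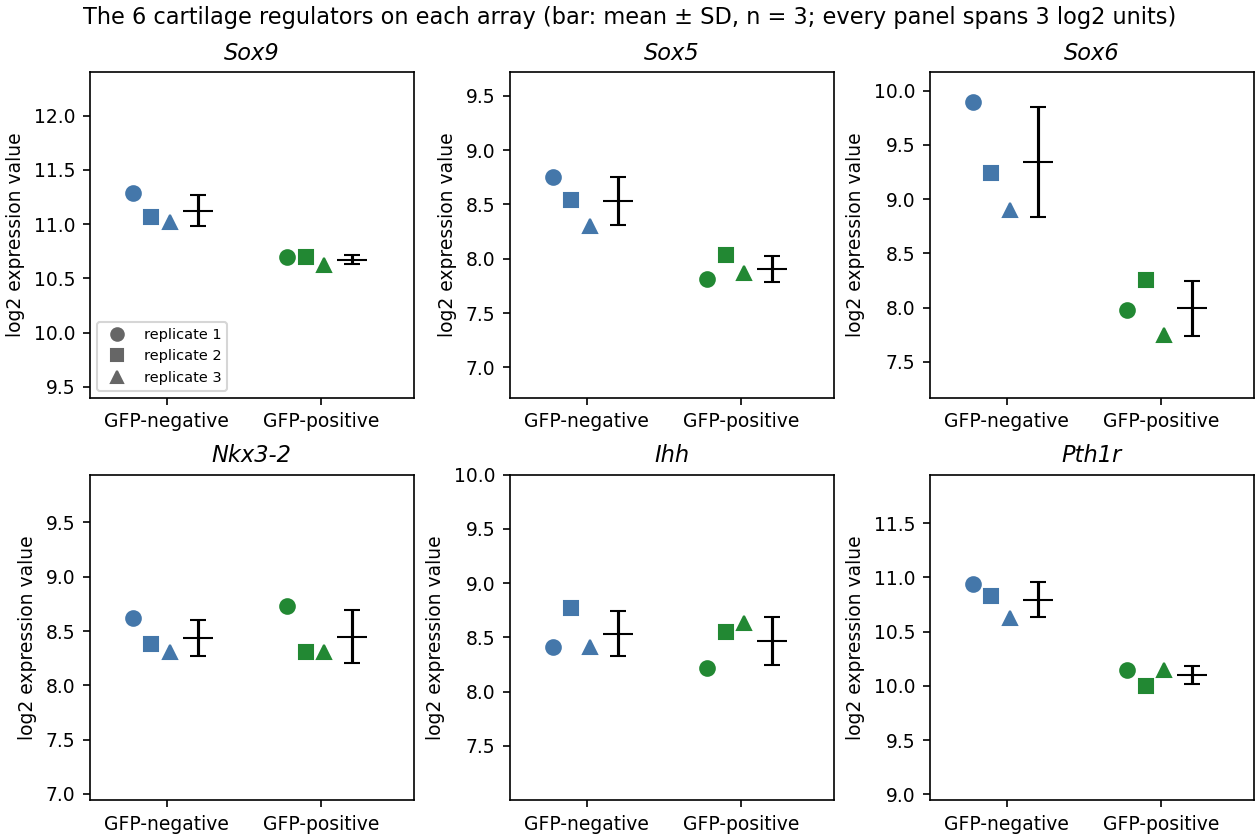
Log2 expression value of each of the 6 genes on each of the 6 arrays, with blue points for GFP-negative and green points for GFP-positive arrays, symbols for the replicate number, and a bar for the mean ± SD (n = 3). Sox9, Sox5, Sox6 and Pth1r show no overlap between the groups, and for Nkx3-2 and Ihh the groups overlap.

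Over the whole series, array medians lay between 6.66 and 6.71 on the log2 scale. The correlation across genes was 0.9951 to 0.9969 for arrays within a group and 0.9845 to 0.9911 for arrays of opposite groups. The question put to the arrays was how expression differs between PDGFRα-positive cells with and without Ebf2 reporter activity. Of the 22180 genes, 1439 (6.49%) passed, 588 higher and 851 lower, or 868 higher and 749 lower after each array was centred on its median. The replicate block brought the total to 2228 (10.0%), made up of 1218 falls and 1010 rises. The number of arrays limits the precision. Ebf2, on which the cells were sorted, was at 12.0 ± 0.061 (SD, n = 3) in GFP-positive and 8.65 ± 0.526 (SD, n = 3) in GFP-negative cells, and Pdgfra, selected for in both, at 13.1 ± 0.090 and 12.9 ± 0.043 (SD, n = 3). The 8 fibroblast markers (collagen genes, Dcn, Lum and others) had a mean log2 level of 12.5 to 12.9 on every array, and Thy1 (log2 change −1.95) and Lum (−0.34) were the 2 of them that fell. The files carry no detection calls, so genes were called dim below log2 6.78, which is the 40th percentile of all gene means. All 6 cartilage regulators lay above it on every array, the lowest value being 7.75.

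Promoter entries were found in RefSeq (GRCm38.p6) for 5 of the 6 genes, all but Sox9, and 3 are shown because they contrast the gene that changed most (Sox6), the one whose call was kept with any 1 array left out (Pth1r) and one that did not pass (Nkx3-2). Each is the 250 bases before the start of the farthest upstream entry, 5′ to 3′, with matches to the SOX core words ACAAT and ACAAAG, searched on both strands, in capitals.
Sox6 (chr7:116038745-116038994, minus strand): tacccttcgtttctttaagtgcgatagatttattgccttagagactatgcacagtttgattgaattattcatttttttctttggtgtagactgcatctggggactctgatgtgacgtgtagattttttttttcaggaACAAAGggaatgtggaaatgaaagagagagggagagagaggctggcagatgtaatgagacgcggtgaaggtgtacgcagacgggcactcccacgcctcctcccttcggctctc
Pth1r (chr9:110747146-110747395, minus strand): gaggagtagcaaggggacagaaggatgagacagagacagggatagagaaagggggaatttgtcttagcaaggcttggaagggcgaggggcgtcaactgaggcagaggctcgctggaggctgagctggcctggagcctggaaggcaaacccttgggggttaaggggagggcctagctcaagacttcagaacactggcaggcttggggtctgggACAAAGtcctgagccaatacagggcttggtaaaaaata
Nkx3-2 (chr5:41764221-41764470, minus strand): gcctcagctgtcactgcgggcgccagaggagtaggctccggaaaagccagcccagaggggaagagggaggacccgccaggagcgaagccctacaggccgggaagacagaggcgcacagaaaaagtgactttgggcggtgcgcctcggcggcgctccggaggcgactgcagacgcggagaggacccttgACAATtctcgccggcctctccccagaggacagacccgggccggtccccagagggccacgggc
Each of these windows holds 1 match, ACAAAG upstream of Sox6 and Pth1r and ACAAT upstream of Nkx3-2. The windows of Sox5 and Ihh also hold 1 each, so the words were present both where the gene passed as lower and where it did not pass. One or other word occurs in 38.8% of all 32851 promoter windows of that length, and in 10 of the 12 entries of these genes, 6 of which belong to Sox6 alone. Of the 3 Pth1r entries, 2 hold no SOX word. The NKX core word TAAGTG, searched on both strands, is in 4 of the 12 entries, among them the printed Sox6 window and that of Sox5 (7.92% of all windows), and the GLI word GACCACCCA in none of the 12 entries (0.225% of all windows). These are matches of letters only.

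Sox9 is the central transcription factor gene of chondrocytes and of several other progenitor cells. Its log2 values were 11.29, 11.07 and 11.02 on GFP-negative arrays 1, 2 and 3 and 10.70, 10.70 and 10.62 on the GFP-positive arrays. Every GFP-positive array was below every GFP-negative one, and the GFP-positive arrays lay closer together. The means of 11.1 ± 0.142 and 10.7 ± 0.043 (SD, n = 3) differ by −0.45 ± 0.08 SE, a 1.37-fold fall (95% confidence interval 1.20-fold to 1.56-fold, limma adjusted p = 0.0229). This was the smallest change among the 4 genes that passed.

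Sox5 encodes one of the partners of SOX9. It was measured at 8.75, 8.54 and 8.30 in GFP-negative cells and at 7.81, 8.04 and 7.87 in GFP-positive cells. The groups did not overlap, and the GFP-negative arrays were the more spread out. The means were 8.53 ± 0.224 and 7.91 ± 0.119 (SD, n = 3), a fall of 1.54-fold (log2 change −0.62 ± 0.12 SE, 95% confidence interval 1.26-fold to 1.89-fold, limma adjusted p = 0.0317).

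Sox6, the other partner gene, had the largest log2 change of the 6. GFP-negative arrays 1, 2 and 3 were at 9.89, 9.24 and 8.90, and the GFP-positive arrays at 7.98, 8.25 and 7.75. The GFP-negative arrays were widely spread, with array 1 the highest, and all lay above the GFP-positive arrays. The means of 9.34 ± 0.506 and 7.99 ± 0.253 (SD, n = 3) differ by −1.35 ± 0.26 SE, or 2.55-fold (95% confidence interval 1.67-fold to 3.90-fold, limma adjusted p = 0.0289).

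The calls of the 3 Sox genes changed with the arrays and the features tested. That of Sox9 ended without negative replicate 2 (adjusted p = 0.0582) or without positive replicate 1, 2 or 3 (0.0853, 0.0861 and 0.0935). Without the same arrays, Sox6 had adjusted p-values of 0.0933, 0.115, 0.0720 and 0.108 in limma, and Sox5 had 0.109, 0.130, 0.0715 and 0.117. Sox5 was also lost without negative replicate 1 (0.0641). All 3 genes passed without negative replicate 3, and Sox9 and Sox6 also without negative replicate 1. When all 41345 probe sets were tested one by one, unnamed ones included, 1.95% of them passed, and the limma adjusted p-values of Sox9, Sox5 and Sox6 were 0.0658, 0.0879 and 0.0832. The direction stayed negative in each of these fits, and leaving out 1 array moved the log2 change of Sox6 between −1.57 and −1.08.

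Within an array, the difference between 2 Sox genes compares their changes as measured. Whether unequal shifts reflect RNA amounts or the response of the different probe sets was not tested. Sox6 minus Sox9 was −1.78 ± 0.367 in GFP-negative and −2.68 ± 0.219 (SD, n = 3) in GFP-positive cells, a shift of −0.90 log2 units. Sox6 minus Sox5 shifted by −0.73 log2 units, from 0.81 to 0.09. In both, the 3 GFP-positive arrays lay below the 3 GFP-negative ones, and the exact two-sided permutation p was 0.1, the smallest that 3 against 3 arrays can give (0.15 after Benjamini-Hochberg adjustment over the 3 pairs). Sox5 minus Sox9 differed by −0.17 (exact permutation p = 0.2 before and after adjustment), and its groups overlapped. This test leaves out the pairing by replicate number, and within the pairs the shifts were −0.35, −0.13 and −0.04, lower in 3 of 3. Each of the 4 genes that passed limma's test had an exact permutation p of 0.1 by itself, which follows from the lack of overlap and adds nothing to it.

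Pth1r encodes the G protein-coupled receptor of parathyroid hormone and PTHrP, present on proliferating and early hypertrophic chondrocytes and on osteoblasts. It was at 10.94, 10.82 and 10.62 in GFP-negative cells and at 10.15, 10.00 and 10.15 in GFP-positive cells. The GFP-positive values were all lower, and the arrays of each group lay close together. The means were 10.8 ± 0.159 and 10.1 ± 0.085 (SD, n = 3), a 1.62-fold fall (log2 change −0.70 ± 0.09 SE, 95% confidence interval 1.39-fold to 1.89-fold, limma adjusted p = 0.00813). Of the 4 lower genes it alone passed with any 1 array left out (limma adjusted p from 0.00836 to 0.0429) and when all probe sets were tested one by one (0.0288).

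**Figure D2:**
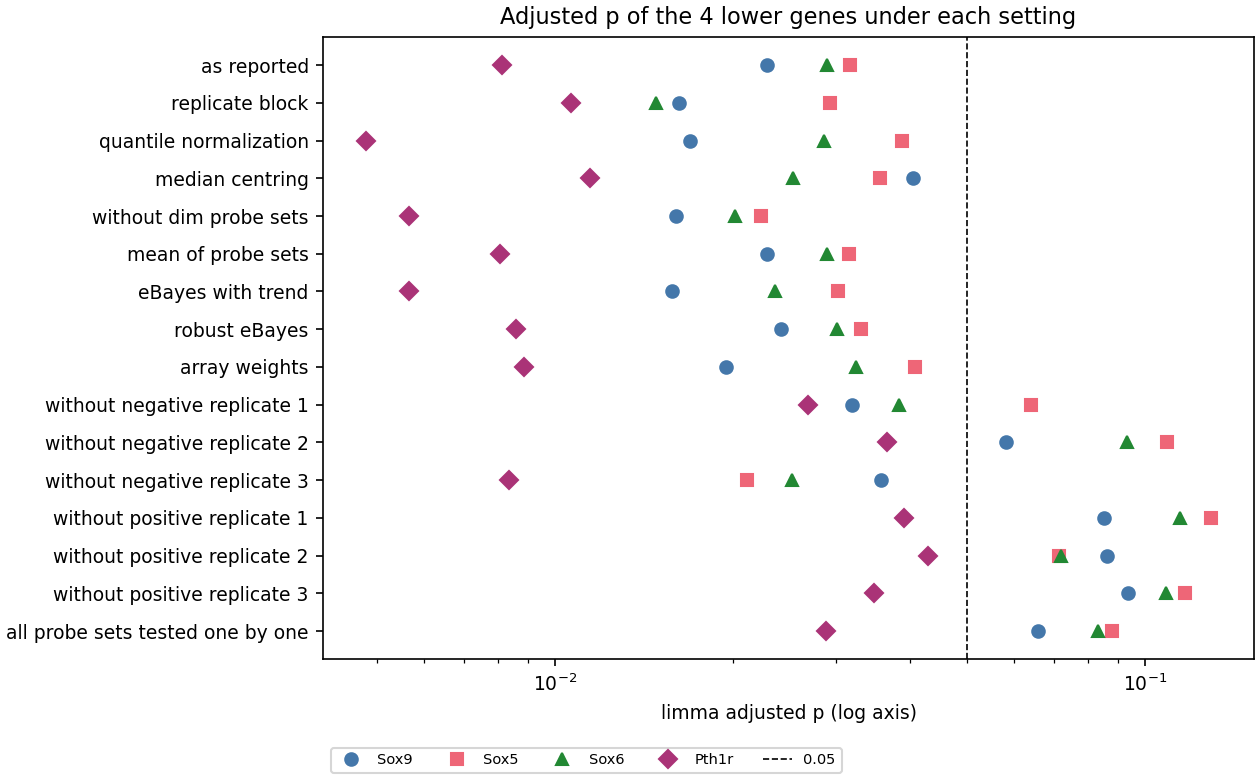
Limma adjusted p (log axis) of Sox9, Sox5, Sox6 and Pth1r under each setting, 1 row per setting, with the threshold of 0.05 as a dashed line. Pth1r stayed left of the line in every row, and the 3 Sox genes crossed it without negative replicate 2, without any 1 positive array and with all probe sets tested one by one, and Sox5 also without negative replicate 1.

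Nkx3-2, the homeobox gene of the sclerotome, did not pass. Its values were 8.62, 8.38 and 8.30 in GFP-negative and 8.73, 8.31 and 8.31 in GFP-positive cells. The ranges overlapped almost fully, and replicate 1 was the highest array in both groups. The log2 change was 0.01 ± 0.14 SE (95% confidence interval −0.32 to 0.35, limma adjusted p = 0.975), so the interval leaves room for a change of up to 1.27-fold upwards or 1.25-fold downwards.

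Ihh, the ligand gene, was likewise not distinguishable between the groups. It was at 8.41, 8.77 and 8.41 on the GFP-negative arrays and at 8.22, 8.55 and 8.64 on the GFP-positive arrays. The lowest array was GFP-positive and the highest GFP-negative, with the others interleaved. Its log2 change was −0.06 ± 0.14 SE (95% confidence interval −0.40 to 0.27, limma adjusted p = 0.875). For both genes the sign of the change turned when single arrays were left out, with log2 changes from −0.13 to 0.11 for Nkx3-2 and from −0.15 to 0.06 for Ihh. The intervals of Nkx3-2 and Ihh overlap that of Sox9 (−0.64 to −0.26), and a difference between these genes was not tested.

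Taken by replicate number, the GFP-positive array was lower than its GFP-negative counterpart in 3 of 3 pairs for each of the 4 genes that passed. The groups do not overlap for these genes, so any pairing gives that count, and only the sizes of the differences are further information. For Sox6 these differences were −1.91, −0.99 and −1.15, for Sox5 −0.94, −0.50 and −0.44, for Sox9 −0.59, −0.37 and −0.40, and for Pth1r −0.79, −0.82 and −0.47. Pair 1 showed the largest difference for the 3 Sox genes and pair 2 for Pth1r. Nkx3-2 was lower in 1 of 3 pairs and Ihh in 2 of 3.

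Most genes of cartilage matrix, some of which SOX9, SOX5 and SOX6 are known to act on, were also lower. Whether these falls are related to those of the Sox genes was not tested. Of 21 measured genes of cartilage matrix and its sulfation, 19 fell (90.5%, against 3.84% of all genes) and none rose, with a median log2 change of −1.34. Col2a1, the collagen of cartilage fibrils, fell 2.80-fold (−1.49 ± 0.13 SE, limma adjusted p = 0.00153) and Acan, the large aggregating proteoglycan, 4.12-fold (−2.04 ± 0.14 SE, adjusted p = 0.000746). Matn3, a matrilin, fell 4.59-fold and Hapln1, the link protein that ties aggrecan to hyaluronan, 3.99-fold. Col9a3 and Col9a1, which encode chains of collagen IX on the fibril surface, were 3.97-fold and 3.79-fold lower. Mia, a small secreted cartilage protein, was 3.76-fold lower and Cnmd (chondromodulin) 2.74-fold. Sox9 itself was 1.37-fold lower and Sox6 2.55-fold lower on the same arrays. The genes that did not pass were Ucma (log2 change −0.63, limma adjusted p = 0.0761, or 0.0137 with the replicate block) and Col27a1 (−0.19, adjusted p = 0.182).

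**Figure D3:**
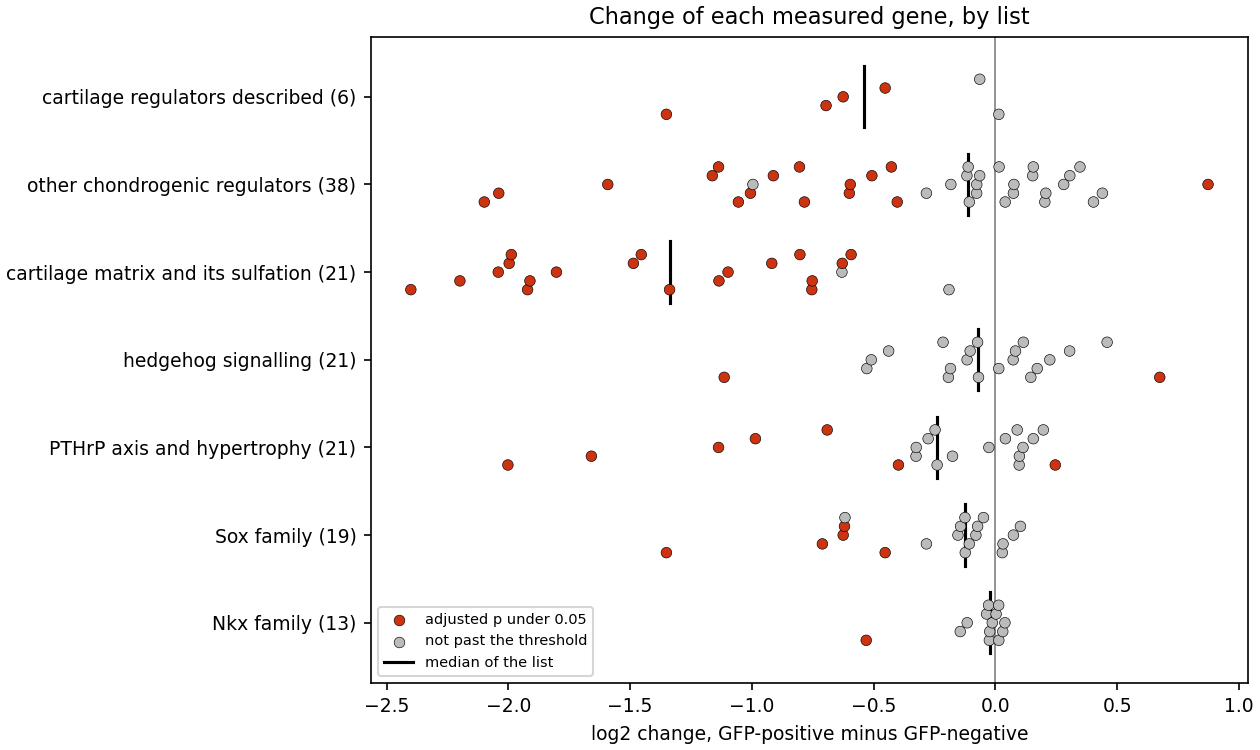
Log2 change (GFP-positive minus GFP-negative) of each measured gene, 1 point per gene and 1 row per list with the number of genes in brackets; red points passed the adjusted p threshold of 0.05, grey points did not, and black bars mark medians. All red points lie left of 0 for the 6 regulators (top) and for the cartilage matrix list, and 19 of 21 hedgehog genes are grey.

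Of other regulators of chondrogenesis, 38 were measured, and most of those that passed were lower. In that list 15 of 38 measured genes fell (39.5%, against 3.84% of all genes) and 1 rose (2.63%, against 2.65%), with a median log2 change of −0.11. With the replicate block 16 fell and 3 rose, where 5.49% of all genes fell and 4.55% rose. Without positive replicate 1 or 3, 9 of the 38 passed in either direction. Cytl1, a secreted cytokine-like protein of cartilage, fell 4.28-fold, and Scrg1, a small protein found in cartilage, 4.11-fold. Fgfr3, the growth factor receptor that restrains chondrocyte proliferation, fell 3.01-fold (−1.59 ± 0.11 SE, limma adjusted p = 0.000631). The transcription factor genes Mef2c, Foxc2, Runx3 and Twist1 fell 2.20-fold, 2.08-fold, 2.01-fold and 1.75-fold, and the mean of Runx3 in GFP-positive cells (6.62) lay below the mark of dim genes. Against that direction, Fgf18, a ligand of FGFR3 in the growth plate, was 1.83-fold higher (0.87 ± 0.10 SE, adjusted p = 0.00549), with all 3 GFP-positive arrays (11.26, 11.24 and 11.46) above the GFP-negative ones (10.41, 10.29 and 10.63).

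The sclerotome factor gene Pax1, which acts upstream of Nkx3-2, did not pass either. It was at 8.54, 8.48 and 8.18 in GFP-negative and 9.13, 8.63 and 8.49 in GFP-positive cells, with 1 GFP-positive array inside the GFP-negative range (log2 change 0.35 ± 0.18 SE, limma adjusted p = 0.397). Among 13 measured Nkx genes, 1 passed (7.69%, near the 6.49% of all genes), namely Nkx6-1, which fell 1.44-fold (adjusted p = 0.00923). Runx2 was not analysed here.

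The hedgehog pathway beyond Ihh showed few changes without the replicate block and more with it, as given below. Of 21 measured genes, 1 fell and 1 rose (4.76% each, against 3.84% and 2.65% of all genes), and the median log2 change was −0.07. Scube2, which helps to release hedgehog ligands from cells, fell 2.16-fold (−1.11 ± 0.14 SE, limma adjusted p = 0.00694). Hhat, the acyltransferase that adds palmitate to hedgehog proteins, was 1.60-fold higher (0.67 ± 0.09 SE, adjusted p = 0.00882, or 0.0503 without positive replicate 1). The ligand genes Shh and Dhh had means below the mark of dim genes in both groups, with log2 changes of −0.10 and −0.19.

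Ptch1, the hedgehog receptor gene and a target of the pathway, was at 11.10, 11.06 and 10.82 in GFP-negative and 10.64, 10.55 and 10.27 in GFP-positive cells. The groups did not overlap, yet the difference of −0.51 ± 0.12 SE did not pass (limma adjusted p = 0.0587). With the replicate number as a block it did (adjusted p = 0.00653), and the differences within pairs were −0.46, −0.51 and −0.56. The block raised the list's calls from 2 to 7, 4 lower and 3 higher of 21. With it, 10.0% of all genes passed, 5.49% lower and 4.55% higher. The added calls were lower values of Ptch1, Scube1 and Scube3 and higher values of Gli3 and Gpr161. Ptch1 also passed under 3 other settings, namely quantile normalization (0.0374), the filter on dim probe sets (0.0417) and the eBayes trend (0.0473). Gli1, another target gene, changed by −0.12 ± 0.13 SE on the log2 scale (limma adjusted p = 0.723, or 0.259 with the block), and Hhip, an inhibitor induced by the pathway, by −0.21 ± 0.07 SE (0.168, or 0.130 with the block).

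Around Pth1r, the list of the PTHrP axis and hypertrophy had 6 lower genes among 21 measured (28.6%, against 3.84% of all genes) and 1 higher (4.76%, against 2.65%), with a median log2 change of −0.24. Without negative replicate 2 or positive replicate 3, 4 of the 21 passed. Some of the lower genes are counted in other lists too, Mef2c among the other chondrogenic regulators and Ibsp and Sp7 among osteoblast markers. The lower genes were Ibsp, a matrix protein of mineralizing tissue (4.00-fold), Panx3, a channel protein of hypertrophic chondrocytes and osteoblasts (3.16-fold), Mef2c (2.20-fold), Sp7, the osteoblast transcription factor (1.98-fold), Ccnd1 (cyclin D1, 1.61-fold) and the histone deacetylase gene Hdac5 (1.32-fold). Ibsp no longer passed when positive replicate 3 or any 1 GFP-negative array was left out (adjusted p up to 0.108), and the call of Hdac5 ended without any 1 array but negative replicate 3 (up to 0.121) and after median centring (0.0554). Gnas, the stimulatory G protein gene through which PTH1R signals, was 1.19-fold higher (limma adjusted p = 0.0418), a call lost with the replicate block (0.0513), after quantile normalization (0.0540) and without any 1 array (up to 0.142). Col10a1, the collagen of hypertrophic cartilage, was at 6.82, 8.33 and 9.21 in GFP-negative and at 6.61, 8.13 and 8.79 in GFP-positive cells. It did not pass and differed widely by replicate number, replicate 3 being the highest and replicate 1 the lowest in both groups (log2 change −0.28 ± 0.74 SE, limma adjusted p = 0.898, or 0.0679 with the block). Pthlh, which encodes PTHrP, was not analysed here.

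Across the Sox family, 5 of 19 measured genes fell (26.3%, against 3.84% of all genes) and none rose (against 2.65%). The count includes Sox9, Sox5 and Sox6, which were chosen with earlier results known, so the share is a description and not a result about the family. The others were Sox10, a factor of neural crest and Schwann cells, and Sox2, a factor of neural and Schwann precursors. Sox10 was 1.54-fold lower (limma adjusted p = 0.0210) and Sox2 1.64-fold lower (adjusted p = 0.0454), and the mean of Sox2 in GFP-positive cells (6.68) lay below the mark of dim genes. Sox10 was lost without any 1 positive array (up to 0.0924), and Sox2 without any 1 array but negative replicate 3 (up to 0.144) and with array weights (0.0601). No Sox gene passed without positive replicate 1, 2 or 3, 1 passed without negative replicate 2 and 3 passed without negative replicate 1. Sox8, from the same subgroup as Sox9 and Sox10, did not pass (−0.28 ± 0.14 SE on the log2 scale, limma adjusted p = 0.356), and Sox4 and Sox11, which are broadly expressed in embryonic mesenchyme, had changes of 0.07 and −0.11 that did not pass.

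Some marker genes of other cell types differed between the groups too. Over all genes, 3.84% fell and 2.65% rose, and a list with 1 called gene says little about its cell type. All 15 macrophage markers were lower, with a mean log2 level of 9.36 to 10.33 on GFP-negative and 7.07 to 8.09 on GFP-positive arrays. The means of 4 of them in GFP-positive cells lay below the mark of dim genes. Among 9 measured Schwann and neural crest markers, 3 fell and 1 rose (8.42 to 8.67 against 7.97 to 8.20), and among 8 osteoblast markers 3 fell and 1 rose (7.72 to 7.83 against 7.43 to 7.66). The markers that fell were Ednrb (4.37-fold), Fabp7 (3.12-fold) and Sox10 (1.54-fold) among the former. Among the latter they were Ibsp (4.00-fold), Sp7 (1.98-fold) and Omd (1.79-fold, with a GFP-positive mean below the mark of dim genes). The markers that rose were Ngfr (3.60-fold) among the former and Phex (5.43-fold) among the latter, so neither list moved in 1 direction. Of 10 endothelial markers 2 fell and 1 rose (8.84 to 9.42 against 8.69 to 8.98), and of 10 mural cell markers 3 fell and 1 rose (10.06 to 10.15 against 9.91 to 9.96). Of 6 tendon markers 1 fell and 1 rose (9.92 to 10.13 against 10.24 to 10.79). Among 12 muscle markers 1 rose, and 1 of 6 epithelial and 1 of 6 neuronal markers fell. The 4 notochord markers had a mean level of 6.01 to 6.23 over all arrays. Array values have no true 0, and the part of these cell types in the changes of the Sox genes and Pth1r was not tested. Within the GFP-negative arrays, the macrophage mean was highest in replicate 3 (10.33), the array in which Sox9, Sox5, Sox6 and Pth1r were lowest. These genes were highest in replicate 1, but the macrophage mean was lower in replicate 2 (9.36) than in replicate 1 (9.89). The orders were therefore not opposite over the 3 arrays. The macrophage mean was also highest in replicate 3 of the GFP-positive arrays (8.09), where Sox9 and Sox6 were lowest but Sox5 and Pth1r were not. Whether these orders are related was not tested.

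The arrays of a group also differed among themselves in a shared way. In GFP-negative cells, 5 of the 6 regulators (all but Ihh) were highest in replicate 1 and lowest in replicate 3, an order found in 15.1% of all genes and in 10 of the 21 cartilage matrix genes. Sox6 lay 0.55 above its group mean in replicate 1 and 0.45 below it in replicate 3. The mean of the cartilage matrix list moved less, by 0.08 and −0.05 on the same arrays. In GFP-positive cells no such common order was seen, with Sox5 and Sox6 highest in replicate 2, Nkx3-2 in replicate 1 and Ihh in replicate 3.

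**Figure D4:**
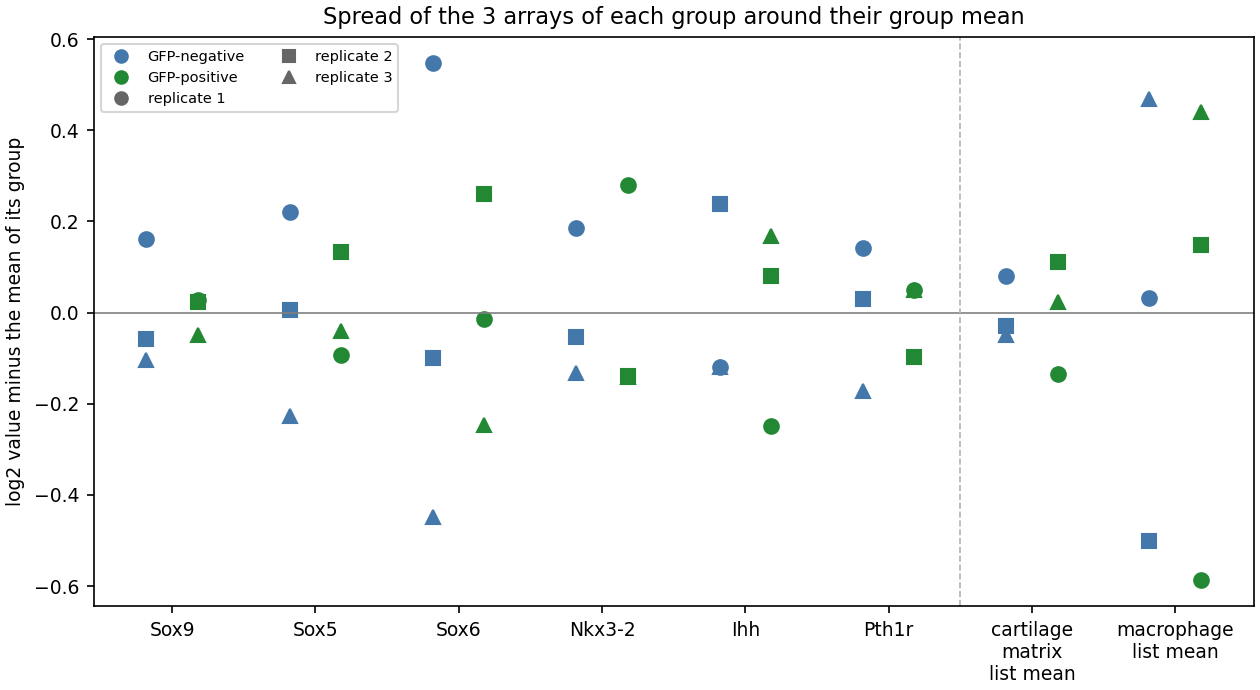
Log2 value of each of the 6 genes, and mean of the cartilage matrix and macrophage lists, minus the mean of its own group, with blue points for GFP-negative and green for GFP-positive arrays and symbols for the replicate number. The blue circles (GFP-negative replicate 1) lie highest among the blue points for all genes but Ihh, and Sox6 has the widest spread of the 6 genes.

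Over the 6 arrays, the genes most like each lower regulator were sought among 999 genes that span at least 1 log2 unit. For Sox9 these were Cacna1d, Sorbs2 and Dach1 (Pearson r = 0.997, 0.994 and 0.993). For Sox5 they were Dusp23, Lmo7 and Dcbld1 (0.994, 0.993 and 0.992), and for Sox6 Ccr1, Chn2 and Dusp23 (0.998, 0.995 and 0.988). For Pth1r they were Rflna, Lin7a and Foxf2 (0.996, 0.991 and 0.988), of which Foxf2, a forkhead factor gene of mesenchyme, fell by 1.63 and Rflna (refilin A) by 0.86 on the log2 scale. The means of Foxf2 and Sorbs2 in GFP-positive cells (6.53 and 6.75) lay below the mark of dim genes, so the size of their falls is against a dim value. Ccr1 lay below the mark of dim genes in both groups. These r values are descriptions over 6 arrays that share the same 2 groups, so that part of each reflects the difference between the groups.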

How the data were processed

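The authors deposited 1 log2 value per probe set and array. RMA and limma are named, per the submitters' processing notes, with versions not given in the sources used here. RMA includes a normalization between arrays, so a change common to most genes could be hidden. The deposited columns are not identical in distribution, as their medians of 6.66 to 6.71 show. Of 41345 probe sets, the platform table lists 1 gene for 23521, several for 1814 and none for the others, and only the first kind was named. The probe set with the highest mean was used for each of 22180 genes. RefSeq genes (GRCm38.p6) were used to update symbols, which changed 0 of them.

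Groups were compared in R 4.3.3 with limma 3.58.1 (lmFit, then eBayes), with errors beside changes as moderated standard errors. On simulated data from these 22180 genes, the method recovered 54.3% of changes of 0.5, 88.7% of 1 and 97.6% of 2 on the log2 scale. Each of 5 runs changed 200 genes, with noise drawn independently for each array and no replicate structure. In the data 1439 genes passed and same-numbered arrays correlated, so these rates need not hold for them. The 6 genes and all lists were chosen with earlier results of these data known. Named genes are the 6 regulators, Ebf2 and Pdgfra, up to 6 genes per list and direction with the smallest p, 8 pathway genes given whatever their values (Ptch1, Gli1, Hhip, Col2a1, Acan, Pax1, Sox8 and Sox10), and the 3 most similar genes per lower regulator. Other genes (Thy1, Lum, Ucma, Col27a1, Col10a1, Shh, Dhh, Sox4, Sox11, Ngfr, Phex and those added by the block) were chosen after their values were seen. So were Ednrb, Fabp7 and Omd. Control probe sets, which the tables used here do not mark, were included when probe sets were tested one by one.

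The labels number replicates alike in both groups. Deviations from group means correlated at 0.314 to 0.519 between same-numbered arrays and at −0.384 to −0.024 between others. The deviations of each gene sum to 0 within a group, so positive values here bring negative ones with them. Part of that contrast is thus built in. Because the positive values fell on the same numbers, these were taken as pairs, but only for the differences within pairs and for the replicate block. Limma values given without mention of the block leave the pairing out. Only the data, not the labels, bear this pairing out. No scan date or batch is given. Alternatives were leaving out each array in turn, a threshold of 0.01, array weights, a robust or trended eBayes, averaged probe sets, a filter on dim probe sets, quantile normalization, median centring and the replicate block. Plots used matplotlib 3.10.9.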

Additional observations from a re-analysis of the deposited data

How the results depend on the processing

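Sox9, Sox5, Sox6 and Pth1r kept their direction in every alternative run, and their calls under the replicate block, quantile normalization, median centring, the filter on dim probe sets, averaged probe sets, both eBayes options and array weights. The replicate block changed no call among the 6 regulators (adjusted p = 0.0162 for Sox9, 0.0292 for Sox5, 0.0148 for Sox6 and 0.0106 for Pth1r). It raised the count over all genes to 2228 and that of hedgehog genes from 2 to 7. The hedgehog count was 4 after quantile normalization, 5 without dim probe sets and 4 with an eBayes trend. At an adjusted p under 0.01, Pth1r alone was called (1 of 6 regulators), while Sox9 (−0.45), Sox5 (−0.62) and Sox6 (−1.35) were not. That threshold left 539 genes in all, 9 other chondrogenic regulators, 4 genes of the PTHrP list and 0 of the Sox family (19 measured, where 5 pass at 0.05 in limma). Testing all probe sets one by one, an alternative chosen after seeing the data, also left 1 of the 6 called, with the changes of Sox9, Sox5 and Sox6 unchanged at −0.45, −0.62 and −1.35 and adjusted p-values over more features tested.

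With 1 array left out, 1 to 4 of the 6 regulators passed and 629 to 1067 of all genes, with positive replicates 1, 2 and 3 giving the lowest counts (629, 667 and 762). The log2 changes ranged from −0.50 to −0.37 for Sox9, −0.74 to −0.51 for Sox5, −1.57 to −1.08 for Sox6, −0.78 to −0.62 for Pth1r, −0.13 to 0.11 for Nkx3-2 and −0.15 to 0.06 for Ihh. The sign turned for Nkx3-2 without negative replicate 2 (−0.01), negative replicate 3 (−0.05) or positive replicate 1 (−0.13), and for Ihh without negative replicate 2 (0.0547) or positive replicate 1 (0.0596). Counts ranged from 9 to 13 for other chondrogenic regulators, 16 to 17 for cartilage matrix, 1 to 4 for hedgehog, 4 to 5 for the PTHrP list, 0 to 5 for the Sox family, and stayed at 1 for Nkx genes. These fits have fewer samples. The signal over background on each array is unknown, which limits statements on dim genes.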
